A study of Mus musculus with 3 samples.

Results

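Cajal-Retzius neurons of the wild-type cortical hem were taken as the cells that carried transcripts of Trp73 or Cdkn1a among the neurons of 2 wild-type libraries. Cells with at least 1000 genes, at least 2000 unique molecular identifiers (UMIs, the counted transcript molecules) and at most 10% mitochondrial UMIs were kept. Neurons were cells with at least 8 UMIs of Tubb3 and Stmn2 together per 10000. Members had at least 5 UMIs of Trp73 and Cdkn1a together and under 20 UMIs of Ttr, a choroid plexus transcript, per 10000. This gave 1291 cells, 681 in library 1 and 610 in library 2, of 3620 wild-type neurons, 17626 kept wild-type cells and 33001 kept cells in the series. They are called Trp73/Cdkn1a neurons below, and are set against the 1240 and 1075 other neurons of the same libraries, which had at most 4 UMIs of the pair.

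The hem region was dissected from C57BL/6J mouse embryos and sequenced with droplet 3′ chemistry (10x Genomics v3). The knockout (KO) was 1 library from 4 pooled Gmnc-/- embryos at E12.5. The wild type (WT) was 1 suspension, split over 2 libraries, that pooled 4 E11.5 embryos carrying PGKCre and Rosa26YFP with 4 E12.5 embryos carrying Wnt3aCre and Rosa26tdTomato. The Cre lines and reporters were in the wild type, and stage, dissection and processing cannot be told apart from genotype.

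Cajal-Retzius neurons are among the first neurons of the cortex. They leave the cell cycle at the borders of the pallium, the hem foremost, spread under the brain surface and secrete reelin, a glycoprotein that guides the layering of later neurons. Those of the hem and septum carry p73, the p53 relative encoded by Trp73, which binds the same DNA elements as p53. Gmnc and Mcidas are coiled-coil regulators of the geminin family that switch on the multiciliation programme in epithelia. That programme uses cyclin O (Ccno), Myb, Foxj1, p73 and centriole-building deuterosomes.

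The 2 wild-type libraries are draws from 1 suspension and count as 1 sample. No test was therefore run, and values are given for library 1 and then library 2 with 95% intervals that cover counting error only. The libraries held 12426 and 10399 barcodes with 148073906 and 139978761 UMIs (20256 and 259403297 in the knockout). They shared 1914 barcodes, and in 1887 of these the weaker copy had under 10% of the UMIs of the stronger one (median 2.32%). Shared barcodes made up 15 and 35 Trp73/Cdkn1a neurons and 53 and 108 other neurons, but no Trp73/Cdkn1a neuron was itself a weaker copy. A score from simulated doublets marked 64 and 62 Trp73/Cdkn1a neurons (9.40% and 10.2%) and 134 and 103 other neurons (10.8% and 9.58%). Marked cells and shared barcodes were kept. Values without marked cells are given beside main results that they move.

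Trp73/Cdkn1a neurons made up 35.4% of neurons in library 1 (exact Clopper-Pearson 95% interval 33.2 to 37.6) and 36.0% in library 2 (33.7 to 38.3). By the counts that chose them, 617 and 561 carried both transcripts. Another 62 and 44 carried Cdkn1a without Trp73, and 2 and 5 carried Trp73 without Cdkn1a. The median Trp73/Cdkn1a neuron had 16 and 17 UMIs of Cdkn1a and 3 UMIs of Trp73 in each library. At the threshold lay 23 and 22 cells with exactly 5 UMIs, and 25 and 25 other neurons had 4, while 1028 and 889 other neurons had none. Trp73/Cdkn1a neurons were shallower, with a median of 8113 and 9202.5 UMIs, against 10550 and 11598 in other neurons.

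**Figure D1:**
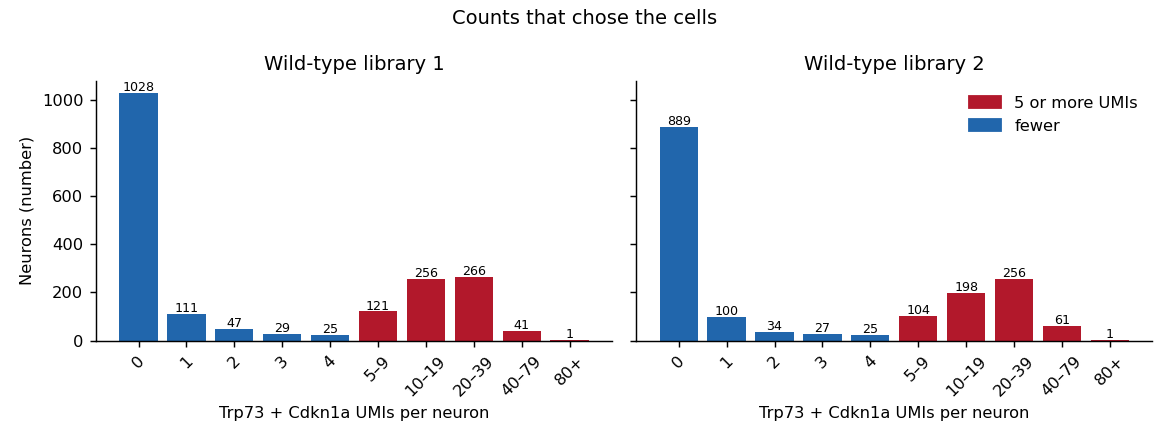
Number of neurons (vertical axis) by their UMIs of Trp73 and Cdkn1a together (horizontal axis, in classes that widen to the right) in each wild-type library. Red bars are neurons with 5 or more UMIs, including the 4 and 10 that the Ttr limit then left out, and blue bars are other neurons, of which 1028 and 889 had none.

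The knockout library held almost no such cells. Of 2700 knockout neurons, 10 met the same rule, or 0.370% (0.178 to 0.680). All 10 passed on Cdkn1a, and Trp73 had 0 UMIs in them. Their median depth was 24742.5 UMIs, against 7850 for the other knockout neurons.

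The remaining Cajal-Retzius markers, none of which entered the rule, were higher in Trp73/Cdkn1a neurons. Lhx1, a LIM homeodomain factor, stood at 276 and 288 CPM (UMIs of the gene per 1000000 UMIs of its class) in Trp73/Cdkn1a neurons and 11.52 and 11.3 CPM in other neurons. Cacna2d2, a calcium channel subunit, had 262 and 265 CPM in Trp73/Cdkn1a neurons and 24.4 and 23.4 CPM in other neurons. Ebf3, a helix-loop-helix factor, had 150 and 152 CPM in Trp73/Cdkn1a neurons and 25.6 and 25.004 CPM in other neurons, and Reln, the reelin gene, had 129 and 135 CPM against 13.7 and 10.99 CPM. In none of these pairs did the libraries of one class overlap those of the other.

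Per cell these markers were seen in part of the population. With every cell thinned to 4000 UMIs, Lhx1 was found in 48.3% and 47.4% of Trp73/Cdkn1a neurons, 3.06% and 2.81% of other neurons and 0% and 0.505% of erythroid cells, which should lack it. Cacna2d2 was found in 54.5% and 54.7% of Trp73/Cdkn1a neurons and Ebf3 in 45.6% and 45.9%. Reln was found in 36.2% and 38.5% of Trp73/Cdkn1a neurons. Its share in other neurons, 4.05% and 3.68%, was below that in erythroid cells, 12.8% and 16.2%, and is not read as expression. Without thinning the Lhx1 shares were 59.5% and 60.7% in Trp73/Cdkn1a neurons and the Reln shares 53.9% and 58.0%. Erythroid cells, at median depths of 16859.5 and 18643 UMIs, then had Reln shares of 46.5% and 53.5%, close to those of Trp73/Cdkn1a neurons.

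A gene was counted as higher or lower when it differed at least 2-fold the same way in both libraries with 95% Poisson intervals that did not overlap. The class with more had to reach 50 UMIs and 20 CPM. Of 6612 genes compared, 326 were higher in Trp73/Cdkn1a neurons (4.93%) and 181 lower (2.74%), and the median log2 fold of all of them was 0.08. Scaling by the median of ratios moved that median to −0.04 and the split to 270 higher and 240 lower. Without marked cells the counts were 406 and 303, and 325 of the 326 and 179 of the 181 were among them. Without shared barcodes the counts were 361 and 214. A gene that reached 20 CPM in one class alone was bound to be above the other in at least 1 library, so counts over the compared genes of a list describe those genes only, and the direction of every gene of the list with a UMI is given beside them. Of all genes with a UMI, 41.9% lay above other neurons in both libraries and 28.6% below.

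The 12 genes of highest fold began with a p53 target. Phlda3, a p53-induced inhibitor of Akt, led by the fold of CPM + 1, the measure of this ranking. It had 250 and 229 CPM in Trp73/Cdkn1a neurons, against 6.51 and 6.51 CPM in other neurons (38.4-fold and 35.2-fold by plain ratio). Cav2, a coat protein of caveolae, had 72.6 and 75.2 CPM against 1.44 and 1.65 CPM in other neurons. Tfap2b, an AP-2 transcription factor, had 45.3 and 62.1 CPM in Trp73/Cdkn1a neurons, and 0.438 and 1.45 CPM in other neurons. Each of these levels in the one class lay more than 20-fold above both libraries of the other. By the plain ratio of CPM, Cav2 and Tfap2b were further apart than Phlda3.

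Plvap, which forms the diaphragms of fenestrated endothelium, had 99.1 and 88.5 CPM in Trp73/Cdkn1a neurons and 2.82 and 2.30 CPM in other neurons. The 8 endothelial markers together reached 8.55 and 7.90 CPM in Trp73/Cdkn1a neurons and 3.19 and 3.68 CPM in other neurons, with 2 and 3 of the 8 at 0 in Trp73/Cdkn1a neurons. The coat partner Cav1 was at 5.10 and 5.01 CPM against 4.95 and 4.08 CPM in other neurons. Shisa8, an AMPA receptor partner, was at 183 and 195 CPM in Trp73/Cdkn1a neurons, against 11.1 and 8.62 CPM. Serpine2, a secreted protease inhibitor, was at 287 and 294 CPM against 17.4 and 14.5 CPM. The top 12 by fold also held Pidd1, the scaffold of a p53-induced caspase-2 complex (144 and 139 CPM against 6.20 and 7.83), the γ-glutamyl transferase gene Ggt5 and the long noncoding RNA Lhx1os, beside Lhx1, Mcidas and Ccno.

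Genes at the other end of the range are given by the same measure. Rprm, an inhibitor of G2 progression, was lowest by fold, with 18.9 and 14.6 CPM in Trp73/Cdkn1a neurons and 161 and 160 CPM in other neurons. Nrp1, a semaphorin receptor, had 6.15 and 4.25 CPM against 52.4 and 51.5 CPM. Another 9, with log2 folds between −2.40 and −1.92, were Cbln4, Hs3st1, Mmd2, Tesc, Prdm8, Slc30a10, Galnt14, Wif1 and Phlda1.

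**Figure D2:**
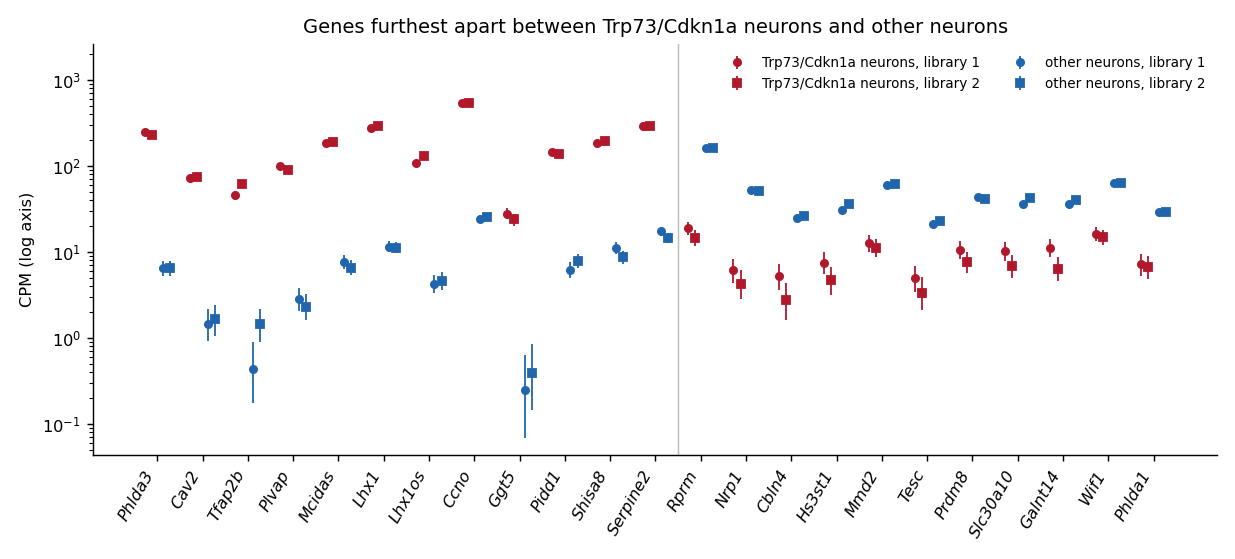
Level in CPM (log axis) of the 12 genes furthest above other neurons and 11 of the genes furthest below them, in Trp73/Cdkn1a neurons (red) and other neurons (blue), with circles for library 1, squares for library 2 and bars for 95% Poisson intervals. Phlda3 stood at 250 and 229 CPM in Trp73/Cdkn1a neurons and 6.51 and 6.51 CPM in other neurons, and in none of the genes shown did the intervals of the classes overlap within a library.

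The 12 regulators of multiciliation together reached 1322 and 1308 CPM in Trp73/Cdkn1a neurons, against 305 and 293 CPM in other neurons. Over the whole list 9 of 12 lay above other neurons in both libraries and 3 below. Of 9 compared, 5 were higher and 1 was lower, but 3 of the 9 reached 20 CPM in Trp73/Cdkn1a neurons alone and 1 in other neurons alone. Mcidas had 184 (174 to 195) and 189 (179 to 200) CPM in Trp73/Cdkn1a neurons, and 7.64 (6.35 to 9.12) and 6.58 (5.35 to 8.003) CPM in other neurons. Ccno had 535 and 533 CPM in Trp73/Cdkn1a neurons and 24.4 and 25.3 CPM in other neurons. Foxj1, the forkhead factor that activates motile cilia genes, had 236 and 218 CPM against 21.2 and 14.8 CPM.

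Gmnc itself differed less. It had 172 and 176 CPM in Trp73/Cdkn1a neurons and 66.0 and 54.0 CPM in other neurons, a log2 fold of 1.52. Myb had 49.2 and 49.5 CPM against 7.95 and 10.3 CPM. The lower member was Rfx4, a brain-specific RFX factor (31.0 and 28.7 CPM against 68.0 and 61.0 CPM), while the E2F partners of Mcidas were not past the limit, with E2f4 at 38.1 and 43.3 CPM in Trp73/Cdkn1a neurons and 45.5 and 52.5 CPM in other neurons. Rfx3, a ciliogenic RFX factor, had 32.2 and 33.4 CPM against 23.1 and 27.0 CPM.

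Many cells held more than 1 of these transcripts. At 4000 UMIs, 63.9% and 64.0% of Trp73/Cdkn1a neurons had at least 2 of Gmnc, Mcidas, Ccno, Foxj1 and Deup1, against 5.62% and 4.84% of other neurons. All 5 were seen together in 44 and 40 Trp73/Cdkn1a neurons, and none of the 5 in 152 and 129. Ccno was found in 67.4% and 67.2% of Trp73/Cdkn1a neurons, Foxj1 in 48.0% and 48.3%, Mcidas in 45.2% and 47.3%, Gmnc in 37.6% and 39.8% and Deup1 in 20.7% and 18.1%. In erythroid cells of the same libraries none of the 5 exceeded 2.53%. Without thinning, Ccno was found in 77.1% and 75.2% of Trp73/Cdkn1a neurons and Deup1 in 32.7% and 33.8%.

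Of the deuterosome and centriole genes, 17 of 18 lay above other neurons in both libraries. Of 14 compared, 5 were higher and none lower, and 5 of the 14 reached 20 CPM in Trp73/Cdkn1a neurons alone. Deup1, the scaffold of the deuterosome, had 63.3 and 66.8 CPM in Trp73/Cdkn1a neurons and 3.63 and 3.36 CPM in other neurons. Plk4, the kinase that starts centriole duplication, had 84.0 and 75.3 CPM against 32.8 and 33.6 CPM, and Cep152, its recruiting scaffold, had 40.9 and 37.1 CPM against 5.51 and 6.32 CPM. Cenpj, a centriole elongation factor, had 92.1 and 89.5 CPM against 30.7 and 34.0 CPM.

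Motile cilia components were low in absolute terms. Of 38 genes 9 were deep enough to compare, all through their level in Trp73/Cdkn1a neurons, and no count of them is given. The whole list summed to 585 and 607 CPM in Trp73/Cdkn1a neurons and 91.3 and 86.1 CPM in other neurons, and 30 of the 36 with a UMI lay above other neurons in both libraries. Mlf1 had 149 and 150 CPM in Trp73/Cdkn1a neurons and 13.6 and 11.4 CPM in other neurons. Tekt1, a tektin of ciliary microtubules, had 60.6 and 66.8 CPM against 9.27 and 8.16 CPM. The dynein light chain gene Dynlrb2 had 44.2 and 40.4 CPM against 2.32 and 2.83 CPM. Cells outside the neuron gate and the erythroid class, which include choroid plexus cells, summed to 385 and 422 CPM over the list.

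Mcidas and Ccno are neighbours on chromosome 13, and both transcripts stood more than 20-fold higher. Their promoters are shown, followed by that of Dynlrb2, and by that of Phlda3, the gene of largest fold of CPM + 1. Cav2 and Lhx1 also stood more than 20-fold higher, but their promoters held no match of the motif below and are not shown. The motif is therefore more frequent in the sequences shown than in the promoters searched. The sequences are RefSeq promoter windows on GRCm38.p6, 5′ to 3′, cut where the GENCODE M21 gene model begins: Mcidas from chr13:112993618-112993844 (plus strand), Ccno from chr13:112987552-112987801 (plus strand), Dynlrb2 from chr8:116504765-116504973 (plus strand) and Phlda3 from chr1:135765835-135766084 (plus strand). Capitals mark the RFX motif GTTGCC, a core of the element read by the RFX factors of ciliated cells.
Mcidas: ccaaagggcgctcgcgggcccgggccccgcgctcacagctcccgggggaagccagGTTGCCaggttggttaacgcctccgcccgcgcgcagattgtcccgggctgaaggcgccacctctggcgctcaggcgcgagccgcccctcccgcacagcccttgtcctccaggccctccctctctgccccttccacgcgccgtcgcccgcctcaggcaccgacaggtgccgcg
Ccno: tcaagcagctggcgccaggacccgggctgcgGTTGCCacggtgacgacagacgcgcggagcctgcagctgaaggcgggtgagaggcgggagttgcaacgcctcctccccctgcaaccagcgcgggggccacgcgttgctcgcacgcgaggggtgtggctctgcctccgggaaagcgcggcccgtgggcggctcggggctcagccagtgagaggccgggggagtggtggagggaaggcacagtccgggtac
Dynlrb2: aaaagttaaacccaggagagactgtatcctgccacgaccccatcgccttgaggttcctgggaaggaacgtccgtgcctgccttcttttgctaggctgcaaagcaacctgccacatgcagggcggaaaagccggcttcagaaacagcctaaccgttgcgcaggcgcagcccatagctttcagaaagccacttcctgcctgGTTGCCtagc
Phlda3: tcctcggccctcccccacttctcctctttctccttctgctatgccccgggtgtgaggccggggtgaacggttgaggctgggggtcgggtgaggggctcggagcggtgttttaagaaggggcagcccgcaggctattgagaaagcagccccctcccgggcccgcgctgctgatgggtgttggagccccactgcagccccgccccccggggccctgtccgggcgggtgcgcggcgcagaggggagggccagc

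This motif was searched on both strands of the 250 bases before the RefSeq start. It was found before 6 of the 25 named genes of these programmes that had a promoter in the table (24%): Mcidas, Ccno, Shisa8, Deup1, Dynlrb2 and Mlf1. Of all 27025 promoters 10.5% held it. The paired core of a p53 family site was found before 2 of the 25, Bbc3 and Spag6l, and in 5.98% of all promoters. The E2F site TTTCCCGC or TTTGGCGC was found before none of them and in 1.35% of all promoters. No matches of different motifs overlapped in the sequences shown, which hold neither of the last pair. These are matches of letters, and binding was not measured.

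Of the p53 family targets, 25 of 26 lay above other neurons in both libraries, and the whole list summed to 2034 and 2039 CPM in Trp73/Cdkn1a neurons and 1082 and 1089 CPM in other neurons. Of 15 compared, 11 were higher and none lower, and 7 of the 15 reached 20 CPM in Trp73/Cdkn1a neurons alone. Cdkn1a, the best-known target, was part of the rule and is not in this list. Rprm, the lowest gene of the ranking, is not in this list either, and the counts describe the listed genes only. Perp, a desmosomal death effector, had 49.8 and 48.0 CPM in Trp73/Cdkn1a neurons and 3.76 and 4.67 CPM in other neurons. Bbc3, which encodes the BH3-only protein PUMA, had 105 and 93.6 CPM against 13.7 and 13.2 CPM, and Ccng1, cyclin G1, had 87.0 and 89.8 CPM against 12.2 and 11.6 CPM.

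Mdm2, the ubiquitin ligase that holds p53 down, had 195 and 204 CPM in Trp73/Cdkn1a neurons and 70.8 and 77.5 CPM in other neurons. Bax, the mitochondrial effector of apoptosis, was not past the limit, with 305 and 298 CPM in Trp73/Cdkn1a neurons and 244 and 225 CPM in other neurons. The list of early stress genes had 0 of 5 past the limit in either direction. Junb, its member furthest up, had 33.0 and 32.8 CPM in Trp73/Cdkn1a neurons and 17.2 and 15.9 CPM in other neurons, and was past the limit without marked cells (log2 fold 1.12).

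Most division genes were below other neurons. All 18 G2 and mitosis genes could be compared, and 16 were lower in Trp73/Cdkn1a neurons, with a median log2 fold of −1.46 (17 lower and −2.40 without marked cells). Of the 18, 4 reached 20 CPM in other neurons alone. Top2a, the topoisomerase of dividing cells, had 115 and 114 CPM in Trp73/Cdkn1a neurons and 305 and 316 CPM in other neurons, and Ccnb1, cyclin B1, had 58.9 and 56.2 CPM against 208 and 193 CPM. Cdk1 stood apart from its list at 195 and 186 CPM in Trp73/Cdkn1a neurons and 176 and 182 CPM in other neurons. S phase genes were lower in 6 of 16, or 10 of 16 without marked cells, and 14 of all 17 lay below other neurons in both libraries. Among them was Rrm2, a ribonucleotide reductase subunit (60.7 and 62.0 CPM against 194 and 202 CPM).

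Regulators of cell cycle exit went both ways. Of 10 compared, 2 were higher (3 without marked cells) and 1 lower, and the median log2 fold was −0.08. Over the whole list 6 of 14 lay above other neurons in both libraries and 8 below. E2f7, an atypical E2F repressor, was higher at 167 and 168 CPM in Trp73/Cdkn1a neurons against 23.5 and 26.8 CPM, and so was Rb1, the retinoblastoma gene, at 71.2 and 68.5 CPM against 27.6 and 29.1 CPM. Ccnd1, cyclin D1, was lower at 22.3 and 23.1 CPM in Trp73/Cdkn1a neurons against 63.8 and 70.3 CPM in other neurons. The 8 progenitor markers summed to 2168 and 2068 CPM in Trp73/Cdkn1a neurons and 2879 and 2892 CPM in other neurons, all 8 below other neurons in both libraries. Their part in the cell cycle values was not tested. Notch genes were lower in 5 of 10 and higher in none, and 11 of all 14 lay below other neurons in both libraries, with the ligand Dll1 at 124 and 127 CPM in Trp73/Cdkn1a neurons and 309 and 351 CPM in other neurons. Glycolysis and hypoxia genes were lower in 3 of 7, or 6 of 7 without marked cells, with Ldha at 331 and 334 CPM against 803 and 807 CPM.

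Neuronal identity genes outside the markers were also apart. Over the Cajal-Retzius identity list, which holds the markers above, 15 of 21 lay above other neurons in both libraries and 2 below. Of 16 compared, 9 were higher and none lower, and 3 of the 16 reached 20 CPM in Trp73/Cdkn1a neurons alone. Barhl2, a homeobox factor, had 53.7 and 63.9 CPM in Trp73/Cdkn1a neurons and 4.63 and 3.62 CPM in other neurons, while the T-box gene Tbr1 had 396 and 398 CPM against 154 and 158 CPM. Calb2, which encodes calretinin, did not pass, with 36.0 and 33.0 CPM in Trp73/Cdkn1a neurons and 43.5 and 28.4 CPM in other neurons. Nor did Ebf2 (324 and 313 CPM against 243 and 252 CPM) or Nhlh2 (324 and 324 CPM against 269 and 306 CPM).

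Genes listed for other pallial neurons went both ways, 3 of 17 higher and 3 lower, or 5 of 18 lower without marked cells. Pou3f1 and Pou3f2, POU factors of upper-layer neurons, were higher, Pou3f1 with 159 and 147 CPM in Trp73/Cdkn1a neurons and 11.46 and 9.94 CPM in other neurons, and Pou3f2 with 140 and 134 CPM against 25.7 and 24.2 CPM. Lmo4, a LIM-only cofactor, was higher too (189 and 221 CPM against 52.8 and 54.6 CPM). The lower ones included Fezf2, a factor of deep-layer neurons, at 77.1 and 62.3 CPM in Trp73/Cdkn1a neurons against 245 and 255 CPM, and Nfix at 206 and 182 CPM against 414 and 432 CPM. The homeobox gene Irx5, listed for diencephalic neurons, was higher at 37.3 and 30.7 CPM in Trp73/Cdkn1a neurons against 6.20 and 5.33 CPM in other neurons.

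Of hem signalling genes, 3 of 13 were higher and none lower, while Rspo1 and Id3 were lower without marked cells (log2 folds −1.34 and −1.71). Rspo3, a secreted amplifier of Wnt signals, had 2324 and 2431 CPM in Trp73/Cdkn1a neurons and 652 and 612 CPM in other neurons. The Wnt ligand Wnt7b had 324 and 320 CPM against 90.1 and 84.9 CPM, and Lmx1a, the LIM homeodomain factor of the hem, had 40.5 and 44.95 CPM against 16.6 and 14.7 CPM. Of the reelin pathway, Dab1, the adaptor of cells that receive reelin, was lower at 13.9 and 14.9 CPM in Trp73/Cdkn1a neurons against 36.2 and 35.6 CPM, while the receptor gene Vldlr was higher at 30.0 and 28.6 CPM against 8.71 and 8.88 CPM.

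Axon guidance and adhesion genes were higher in 5 of 26 and lower in 3, and 5 of the 26 reached 20 CPM in Trp73/Cdkn1a neurons alone and 3 in other neurons alone. Over the whole list 28 of 39 lay above other neurons in both libraries and 10 below. Ackr3, a scavenging receptor for the chemokine Cxcl12, had 60.6 and 63.2 CPM in Trp73/Cdkn1a neurons and 8.89 and 6.78 CPM in other neurons, and the signalling receptor Cxcr4 had 75.9 and 74.9 CPM against 24.8 and 27.0 CPM. Of transmitter genes 3 of 12 could be compared, and Slc17a6, the vesicular glutamate transporter VGLUT2, was higher at 187 and 185 CPM in Trp73/Cdkn1a neurons against 71.1 and 65.8 CPM. Among channel and synapse genes 3 of 10 were higher: Cacna2d2, Cacna2d1 (260 and 267 CPM against 118 and 124 CPM) and the sodium channel gene Scn3a (117 and 128 CPM against 35.7 and 31.5 CPM). Proneural factors had 2 of 10 higher, Insm1 with 234 and 251 CPM in Trp73/Cdkn1a neurons and 62.1 and 74.1 CPM in other neurons, and Bhlhe22 with 74.1 and 63.3 CPM against 31.7 and 30.6 CPM.

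**Figure D3:**
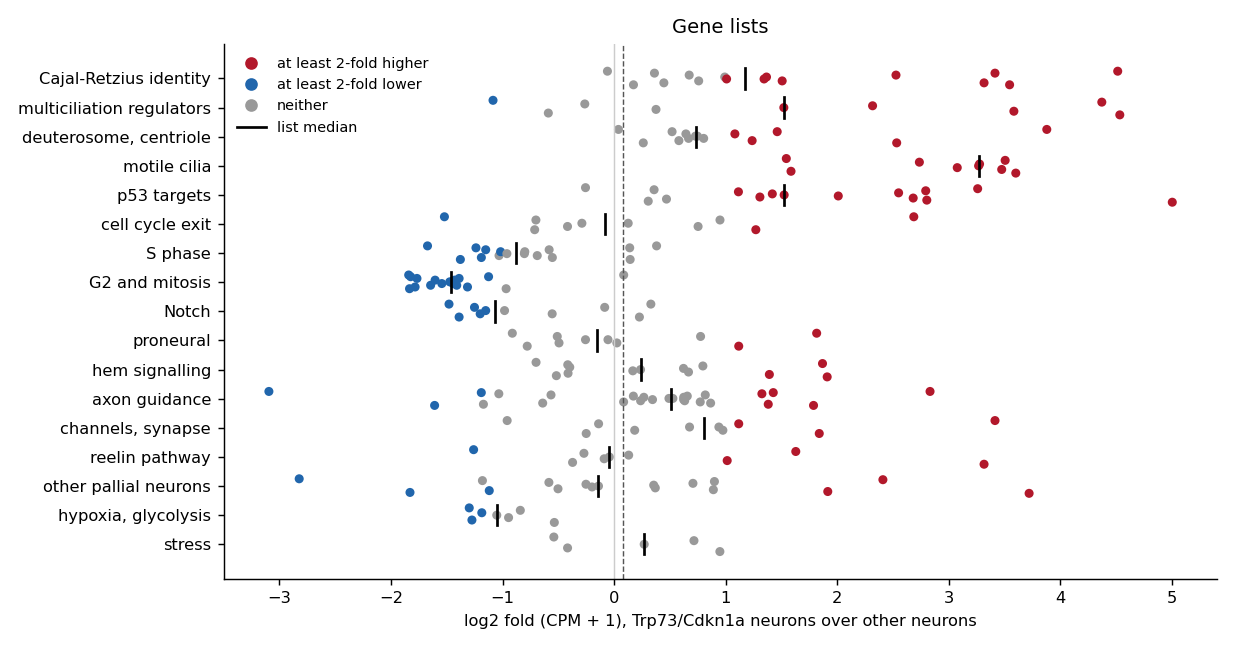
Log2 fold of CPM + 1 (horizontal axis) of Trp73/Cdkn1a neurons over other neurons for each compared gene of 17 lists, as the mean of the libraries. Red and blue points are genes at least 2-fold higher or lower in both libraries, black bars are list medians and the dashed line is the median of all 6612 genes at 0.08, and the G2 and mitosis genes sit to the left with a median of −1.46.

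RNA of other cell types was counted in the same classes. Erythroid markers summed to 2954 and 3504 CPM in Trp73/Cdkn1a neurons and 1905 and 1797 CPM in other neurons, and none of 7 passed the limit. Microglial markers reached 7.05 and 52.9 CPM against 0.939 and 0.855 CPM, mesenchymal markers 8.40 and 13.8 CPM against 15.03 and 17.4 CPM, and choroid plexus markers 57.9 and 76.5 CPM against 63.8 and 50.8 CPM. Their part in the differences was not tested.

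A narrower comparison set Trp73/Cdkn1a neurons against the other neurons with at least 2 UMIs of Lhx1 and Reln together, 64 and 54 cells, with Lhx1 and Reln now part of the choice. Erythroid markers summed to 2954 and 3504 CPM in Trp73/Cdkn1a neurons and 302 and 11856 CPM in these neighbours, so the neighbours of library 2 carried far more erythroid RNA than those of library 1. Its part in the comparison was not tested. Of 4328 genes compared, 162 were higher in Trp73/Cdkn1a neurons (3.74%) and 27 lower (0.624%), and 142 of the 162 and 6 of the 27 had the same call against all other neurons. Of the regulators of multiciliation 4 of 6 were higher, and of deuterosome and centriole genes 4 of 13, with none lower. The neighbours were few, so a gene called lower had to reach a higher CPM in them than a gene called higher in Trp73/Cdkn1a neurons. The absence of lower genes in these lists was thus favoured in advance and is not read. List counts against the neighbours, here and below, describe the compared genes only. Mcidas had 184 and 189 CPM in Trp73/Cdkn1a neurons and 1.27 and 10.2 CPM in these neighbours, and Ccno had 535 and 533 CPM against 26.7 and 33.5 CPM. Deup1 stood at 63.3 and 66.8 CPM against 5.08 and 4.37 CPM, and the motile cilia list summed to 585 and 607 CPM against 92.7 and 157 CPM.

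Other genes with the call in both comparisons were Phlda3 (250 and 229 CPM in Trp73/Cdkn1a neurons, 27.9 and 34.9 CPM in the neighbours), Cav2 (72.6 and 75.2 CPM against 2.54 and 7.28 CPM) and Pou3f1 (159 and 147 CPM against 22.8 and 20.4 CPM). Of p53 family targets 6 of 15 were higher. Of identity genes, 1 of 13 was higher and 1 lower, with a median log2 fold of 0.21. Barhl2 had 53.7 and 63.9 CPM in Trp73/Cdkn1a neurons and 72.4 and 64.0 CPM in the neighbours, and Tbr1 had 396 and 398 CPM against 490 and 565 CPM. Gmnc had 172 and 176 CPM against 104 and 105 CPM and did not pass.

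Calb2, Ina and Nrp2 were among the 27 lower genes and were chosen after their values were seen. Calb2 had 36.0 and 33.0 CPM in Trp73/Cdkn1a neurons and 296 and 195 CPM in the neighbours. Ina, an intermediate filament of neurites, had 308 and 280 CPM against 1019 and 758 CPM, and the semaphorin receptor gene Nrp2 had 27.6 and 31.9 CPM against 138 and 106 CPM. With 64 and 54 cells, small differences were not detectable at this depth.

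Levels in the knockout are set beside these for the leading genes. They are sums over all 2700 knockout neurons, a class that was not chosen by Trp73 or Cdkn1a, so no fold is given. Ccno had 1 UMI in knockout neurons (0.0286 CPM, 0.000724 to 0.159) and Mcidas 3 UMIs (0.0858 CPM, 0.0177 to 0.251), against 24.4 and 25.3 CPM and 7.64 and 6.58 CPM in the other wild-type neurons. Shisa8 was at 0.429 CPM, Cav2 at 0.629 CPM, Plvap at 0.858 CPM and Phlda3 at 5.92 CPM. Gmnc RNA was at 79.6 CPM in knockout neurons, and the 3′ counts do not show which part of the gene was deleted. Lhx1 was at 15.4 CPM, Reln at 59.1 CPM and Tbr1 at 185 CPM in knockout neurons. Of the 2700 knockout neurons 80 had at least 500 haemoglobin UMIs per 10000, the limit for erythroid cells, against 5 and 5 wild-type neurons. Their part in the Reln value was not tested.

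**Figure D4:**
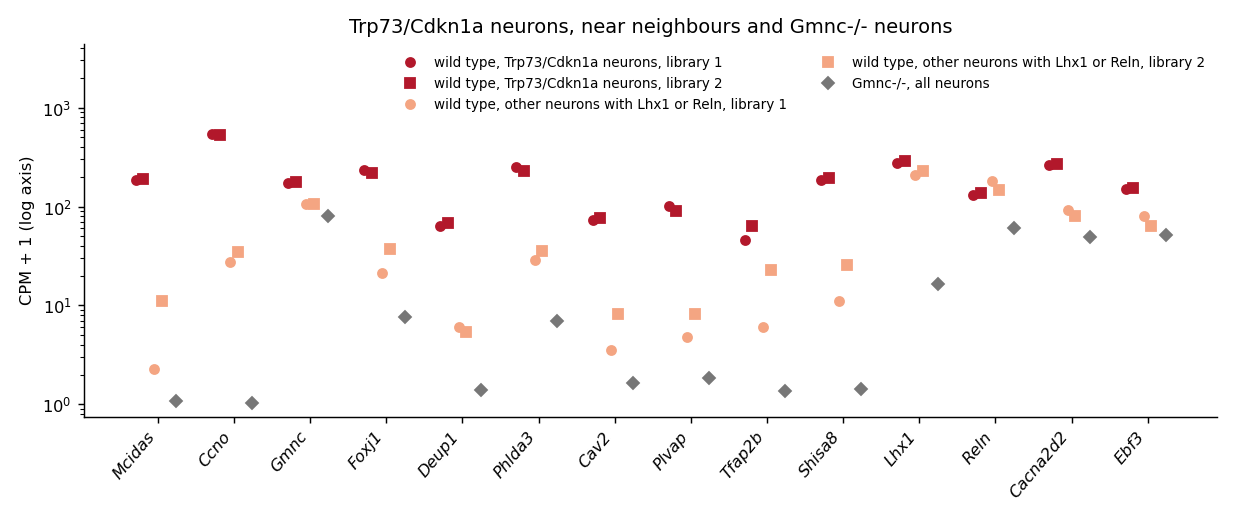
CPM + 1 (log axis) of 14 genes in wild-type Trp73/Cdkn1a neurons (red), other wild-type neurons with Lhx1 or Reln (orange, 64 and 54 cells) and all knockout neurons (grey diamonds, 1 library), with circles for library 1 and squares for library 2. Mcidas stands at 184 and 189 CPM in Trp73/Cdkn1a neurons, 1.27 and 10.2 CPM in the neighbours and 0.0858 CPM in knockout neurons, while Lhx1 stands at 276 and 288, 207 and 228, and 15.4 CPM. Lhx1 and Reln chose the neighbours, so their levels in that class are not findings.

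Variation among Trp73/Cdkn1a neurons was read along a score. Each cell was thinned to 4000 UMIs, which left out 10 and 7 cells, and given a score. The score was the mean log level of neuron genes (Gap43, Stmn3, Snap25, Syt1, Nsg2, Rtn1, Mapt and Dcx) minus that of progenitor genes (Sox2, Hes1, Hes5, Vim, Nes, Fabp7, Sox9 and Hmgb2). The cells were split by it into 3 tiers of equal size over both libraries: low (230 and 195 cells), middle (218 and 206) and high (223 and 202). The tiers are ranges and not types: 161 and 156 cells lay within 0.1 of a border between tiers. The median score was 0.13 and 0.16 in Trp73/Cdkn1a neurons and −0.56 and −0.50 in other neurons.

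Marked doublets and shared barcodes were not spread evenly over the tiers. Marked cells made up 24.3% and 25.1% of the low tier, 3.21% and 5.34% of the middle tier and 0.448% and 0.495% of the high tier. Shared barcodes made up 5.22% and 14.4% of the low tier, 1.38% and 1.94% of the middle tier and 0% and 1.49% of the high tier. Microglial markers summed to 15.4 and 128 CPM in the low tier and 0.556 and 3.78 CPM in the high tier, and the part of marked, shared or microglial RNA in the tier values was not tested. Genes of the score were left out of the counts. Of 6172 genes, 360 were higher in the high tier than in the low tier (5.83%) and 338 lower (5.48%). Without marked cells the tiers were formed anew from the remaining cells, here and below, so cells also changed tier. The counts were then 342 and 166 of 5463 genes, with 282 and 123 of the same genes, and without shared barcodes they were 340 and 222.

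Values over the tiers are given first with marked cells. Gmnc had 256 and 268 CPM in the low tier, 173 and 173 CPM in the middle tier and 37.2 and 49.1 CPM in the high tier. Foxj1 had 300 and 273, 270 and 274, and 96.1 and 77.7 CPM over the same tiers. Mcidas had 203 and 207, 248 and 263, and 87.2 and 82.0 CPM. Ccno had 587 and 575, 687 and 757, and 294 and 226 CPM, and its difference between the high and low tiers passed only without marked cells. With marked cells Gmnc was thus highest in the low tier, and Mcidas and Ccno in the middle tier.

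In the tiers formed anew without marked cells, the low tier was the highest for Gmnc, Mcidas, Ccno and Foxj1 in both libraries. The part of the new tier borders in this order was not tested. Gmnc then had 375 and 365 CPM in the low tier, 162 and 173 CPM in the middle tier and 29.6 and 44.1 CPM in the high tier, and Ccno had 886 and 897, 684 and 738, and 247 and 213 CPM. Mcidas had 312 and 315, 235 and 261, and 78.8 and 78.6 CPM, and Foxj1 had 402 and 400, 272 and 271, and 77.6 and 75.7 CPM. Of the regulators 5 of 9 were lower in the high tier than in the low tier, or 6 of 8 without marked cells. Motile cilia components had 0 of 6 past the limit either way (0 of 8 without marked cells). Their whole list summed to 499 and 471 CPM in the low tier, 736 and 797 CPM in the middle tier and 562 and 586 CPM in the high tier, and without marked cells to 697 and 630, 755 and 862, and 528 and 570 CPM. The middle tier was the highest in both libraries either way, while the low tier lay below the high tier with marked cells and above it without them.

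Identity genes ran the other way. Lhx1 had 108 and 105 CPM in the low tier, 257 and 276 CPM in the middle tier and 561 and 560 CPM in the high tier. Reln had 65.6 and 76.3, 140 and 128, and 221 and 223 CPM over the tiers, Cacna2d2 121 and 138, 301 and 264, and 443.9 and 448 CPM, and Calb2 8.55 and 4.15, 31.4 and 22.3, and 86.1 and 86.4 CPM. Of the identity list 11 of 16 were higher in the high tier and none lower, or 9 of 16 without marked cells. With and without marked cells, the tiers of these 4 genes stood in the same order in both libraries without overlap.

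**Figure D5:**
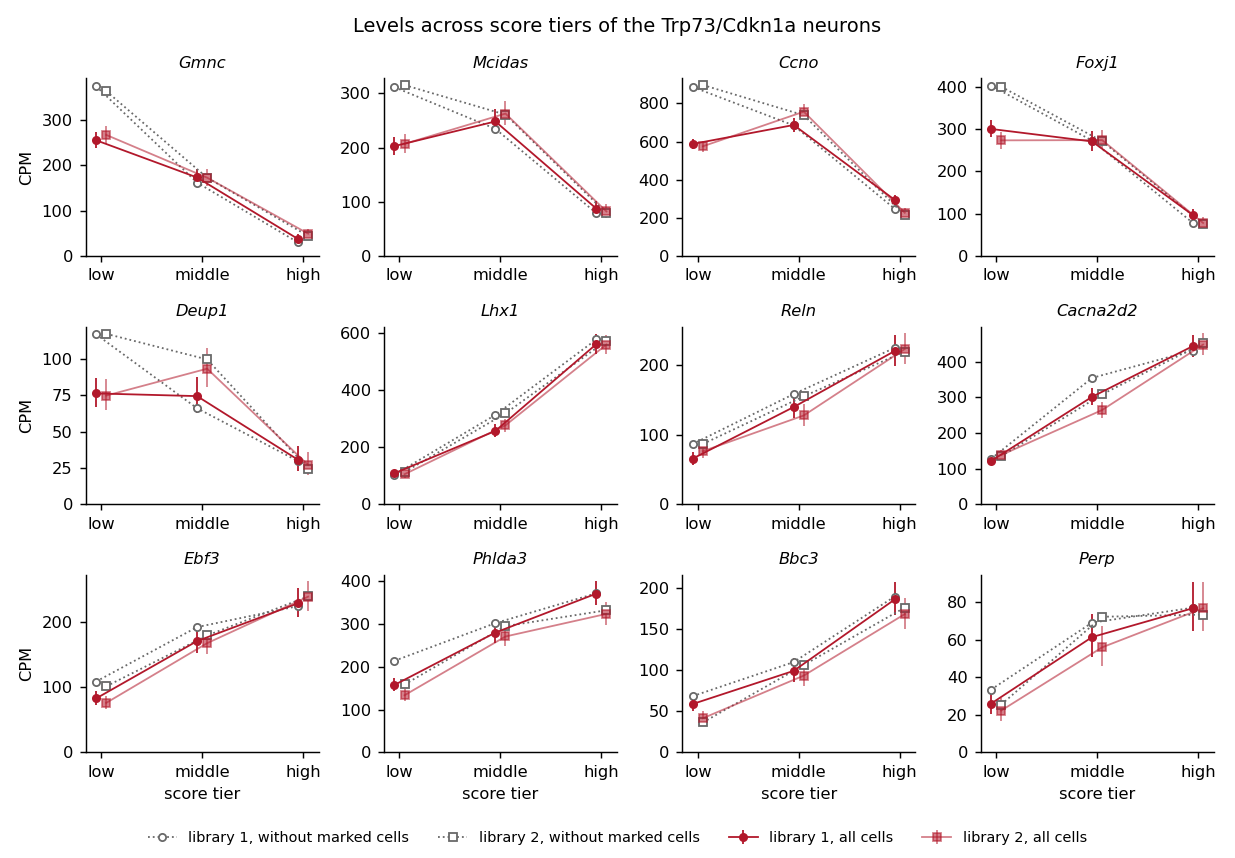
CPM (vertical axes, from 0) of 12 genes over the low, middle and high score tiers of Trp73/Cdkn1a neurons. Red points with 95% Poisson bars are all cells of library 1 (circles) and library 2 (squares, paler). Open grey points leave out marked cells, with the tiers formed anew from the remaining cells. With all cells, Gmnc goes down to 37.2 and 49.1 CPM in the high tier where Lhx1 reaches 561 and 560 CPM.

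Several p53 family targets were highest in the high tier. Bbc3 had 58.8 and 41.5 CPM in the low tier, 99.0 and 93.3 CPM in the middle tier and 186 and 168 CPM in the high tier. Phlda3 had 157 and 133, 279 and 270, and 370 and 323 CPM, a log2 fold of 1.25 between the high and low tiers that was 0.91 and below the limit without marked cells. Of the list 5 of 14 were higher in the high tier, or 3 of 14 without marked cells, and 23 of 26 lay above the low tier in both libraries (30.9% of all genes with a UMI did). As a description of the genes that chose the cells, Cdkn1a had 1169 and 1133, 2348 and 2134, and 2035 and 2112 CPM over the tiers, and Trp73 had 276 and 270, 333 and 360, and 339 and 321 CPM. Without marked cells Trp73 had 376 and 373, 335 and 383, and 337 and 318 CPM, so that its low tier lay above its high tier, and Cdkn1a had 1691 and 1509, 2436 and 2358, and 1975 and 2070 CPM.

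The 8 genes furthest up in the high tier were Samd3, Calb2, the stathmin gene Stmn4, Nrp2, Ina, Islr2, Sez6l2 and Actl6b, a neuronal chromatin remodelling subunit. Ina had 69.4 and 71.3 CPM in the low tier, 216 and 190 CPM in the middle tier and 793 and 681 CPM in the high tier. Axon guidance genes were higher in 12 of 22 and lower in 2, and channel and synapse genes higher in 5 of 9 and lower in 1. The 8 furthest down were Neurog1, Rspo1, Itpr1, Sparc, Rfx4, Irx5, Cdc25b and Krt18. Neurog1, a proneural factor, had 72.1 and 63.0 CPM in the low tier, 38.8 and 26.7 CPM in the middle tier and 3.33 and 3.24 CPM in the high tier. Irx5 had 58.8 and 51.0, 37.2 and 28.2, and 2.22 and 4.86 CPM.

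Of hem signalling genes 10 of 15 were lower and 1, Wnt7b, higher, or 7 of 13 and 1 without marked cells. Rspo1, a Wnt amplifier, had 373 and 326 CPM in the low tier, 37.2 and 41.8 CPM in the middle tier and 22.8 and 22.1 CPM in the high tier, and its low tier was at 170 and 138 CPM without marked cells. The Bmp target Id3 had 630 and 601, 81.2 and 107, and 76.7 and 83.1 CPM, with 229 and 192 CPM in the low tier without marked cells. All 18 G2 and mitosis genes were lower in the high tier, with a median log2 fold of −2.53, and 8 of 10 without marked cells. Rspo3 did not pass, with 2352 and 2356, 2646 and 2794, and 1928 and 2120 CPM.

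By variance over mean of thinned counts, the highest of 1232 genes were Malat1 (16.6 and 14.5), Tmsb4x (10.4 and 10.4), Nnat (10.7 and 10.4) and Tuba1a (9.47 and 9.36), against a median of 1.05. The 12 most uneven by this measure also held the tubulins Tubb5 and Tubb2b, the actins Actb and Actg1, Stmn1, Meg3, Id3 and Cdkn1c, the gene of the cell cycle inhibitor p57 (6.00 and 5.53). At equal relative spread the measure grows with level, so the ranking favours abundant genes and does not compare relative spread. The mean was 55.3 and 56.9 thinned UMIs for Malat1 and 1.82 and 1.85 for Cdkn1c. Cdkn1c had 443 and 427 CPM in Trp73/Cdkn1a neurons and 221 and 229 CPM in other neurons. Nnat, an imprinted membrane protein gene, was higher at 4007 and 3972 CPM in Trp73/Cdkn1a neurons against 1751 and 1731 CPM.

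Reporter transcripts tie part of the cells to a stage, since the E11.5 embryos carried YFP and the E12.5 embryos tdTomato. The reporters were driven by different Cre lines, PGKCre for YFP and Wnt3aCre for tdTomato. Stage therefore cannot be told apart from Cre line, and a reporter share is not the share of a stage. Neither reporter was found in 21.1% and 19.3% of Trp73/Cdkn1a neurons and 25.6% and 26.9% of other neurons. Of Trp73/Cdkn1a neurons 15.3% (12.7 to 18.2) and 14.1% (11.4 to 17.1) had tdTomato alone, against 8.71% (7.20 to 10.4) and 8.47% (6.87 to 10.3) of other neurons. YFP alone was found in 59.5% and 62.6% of Trp73/Cdkn1a neurons and 62.6% and 61.2% of other neurons. These shares are without thinning. YFP, with or without tdTomato, was then found in 63.6% and 66.6% of Trp73/Cdkn1a neurons and 58.8% and 54.5% of erythroid cells. Thinned to 4000 UMIs, it was found in 54.2% and 53.1% of Trp73/Cdkn1a neurons and 42.5% and 40.4% of erythroid cells. Free RNA was not told apart from the cells' own.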

How the data were processed

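Per the labels' protocols, cells were dissociated, filtered and run with 10x Genomics 3′ v3 chemistry, about 20000 loaded per library for a target of 10000. The deposited values are whole-number counts of UMIs, as the authors' Cell Ranger runs wrote them: release 3.1.0 for both wild-type libraries and 6.0.0 for the knockout per the file headers. The submitters' notes name 3.1.0 and mm10. Which gene annotation was used is not stated in the sources at hand. The wild-type set held 28001 features, 3 of them transgene sequences.

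Within a library the UMIs of a class were added up and scaled to its total (CPM). Intervals are exact Poisson for CPM and Clopper-Pearson for shares, at 95%, and PCR or free RNA is outside them. Folds are log2 of the libraries' mean CPM + 1. Trp73, Cdkn1a, Tubb3, Stmn2 and Ttr chose the cells and were left out of counts. Doublets were scored against 2 simulated doublets per cell (30 components, 30 neighbours, the top 8%). Because ties at the border were kept, 8.98% and 8.30% of cells were marked. The call rule and the thinning were tested on simulated data. Gene positions came from GENCODE M21 (GRCm38) and promoters from RefSeq (GRCm38.p6). Of 29 genes named from the leading and cilia, centriole and p53 lists, 25 had a promoter. The members, the gene lists and the rules were chosen with earlier results of these data known. Genes named are the 12 highest and 12 lowest, up to 4 per list, 7 always given, the 12 most uneven and 8 each way between tiers; further list members, namely Bax, Cav1, Cdk1, Cxcr4, E2f4, Ebf2, Fezf2, Mdm2, Nfix, Nhlh2, Rfx3, Tbr1, Tekt1 and Top2a, were chosen after their values were seen. Some genes that the rule names are not reported here. Python 3.11.15, numpy 2.4.6, scipy 1.17.1, pandas 2.3.3 and scikit-learn 1.9.0 were used.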

Additional observations from a re-analysis of the deposited data

How the results depend on the processing

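Each genotype was 1 suspension, so spread between embryos is unknown, and depth limits the comparison with the 64 and 54 neighbours. No paired analysis was possible because the groups compared are classes of cells within 1 sample and no test was run. Leaving out 1 library moved none of 68 summary values past its limit. With library 1 or library 2 left out, 402 and 375 genes were higher and 231 and 220 lower. All of the 326 and 181 were among them by construction, since a call needed each library to pass by itself. The Trp73/Cdkn1a share of neurons was 38.5% at a threshold of 3 UMIs, 29.6% at 10 UMIs and 41.4% with a neuron gate of 15 per 10000. Without marked cells 303 genes were lower. Without the low-count filter 899 were higher and 341 lower. Against the neighbours with Lhx1 or Reln the counts were 162 and 27, where a gene called lower had to reach a higher CPM.

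List medians (log2) moved as follows. Motile cilia went from 3.27 to 3.75 without marked cells, 3.55 without shared barcodes and 3.85 against other neurons with 0 UMIs of the pair. The same median was 3.54 with a Ttr limit on other neurons and 3.53 with neurons thinned to 4000 UMIs. In the main comparison all 9 of its compared genes reached the minimum in Trp73/Cdkn1a neurons alone, which favoured a positive median in advance. These medians describe the compared genes only. S phase went to −1.38 without marked cells, −1.23 without shared barcodes and 0.073 against the neighbours. G2 and mitosis went to −1.79 with 5 UMIs per 10000 as threshold, −2.40 without marked cells, −1.10 against the neighbours and −1.39 with a pseudocount of 5 CPM. Hypoxia and glycolysis went to −1.44 without marked cells, −0.11 against the neighbours and −1.35 when thinned. Against the neighbours Cajal-Retzius identity was 0.21 and axon guidance 0.029. Transmitter genes reversed to −0.29 at a neuron gate of 15. Of the genes named here that were past the limit against all other neurons, the fold had the opposite sign against the neighbours for Barhl2 (−0.21), Bhlhe22 (−0.55), Dab1 (0.46), Ldha (0.17), Slc2a1 (0.071), Wif1 (0.15), Tbr1 (−0.41), Samd3 (−0.95), Nnat (−0.11), Rfx4 (0.03), Gap43 (−0.24), Mapt (−1.31) and Actl6b (−1.15), the last pair past the limit as lower. Reln also had the opposite sign (−0.30), but its counts helped choose the neighbours, so its fold there is not read. The cause of the other moves was not tested. Leaving out shared barcodes or their weaker copies was chosen after seeing the data.

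Between tiers, a score of progenitor genes alone gave 13 higher and 159 lower, a split into 2 tiers 198 lower, leaving out marked cells 166 and leaving out shared barcodes 222. Of the 12 most uneven genes 6 were shared without thinning. Mean shares of Trp73/Cdkn1a neurons with a UMI, at 2000 UMIs and without thinning, were 22.8% and 51.6% for Gmnc, 28.0% and 63.6% for Mcidas, 55.3% and 76.2% for Ccno, 32.3% and 64.8% for Foxj1, 11.9% and 33.3% for Deup1, 22.6% and 56.0% for Reln, 37.2% and 60.1% for Lhx1, 38.2% and 72.6% for Cacna2d2 and 28.4% and 68.7% for Ebf3. Erythroid cells without thinning had Reln shares of 46.5% and 53.5% in libraries 1 and 2.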
